A study of Mus musculus with 4 samples.

Results

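Hypoxia-only shoulders of promoter peaks are short stretches of accessible chromatin that the peak caller assigned to hypoxia alone and that adjoin, without a gap, a promoter peak assigned to both oxygen levels. They were chosen by the label in the peak name (hypoxia only), a width under 1000 bp, and a touching shared peak that has a protein-coding start site of GENCODE M21 no more than 1 kb away. Where a shoulder touched 2 promoter peaks, the stronger one was taken as its shared peak. The rule found 1970 shoulders among 128055 peaks and among the 8754 hypoxia-only peaks. Of these, 3 lay on the mitochondrial genome and are described on their own, and all other values refer to the 1967 nuclear shoulders, which were assigned to 1732 genes.

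The study asked how oxygen level alters the chromatin of mesenchymal stem cells (MSCs), and the data are ATAC-seq libraries from MSCs of the hind limb bones of male C57BL/6N mice aged 3 to 5 months. After culture at 2% O2, the cells were sorted as CD45-/Ter-119-/Sca-1+/CD140a+ and split between hypoxia (2% O2) and normoxia (21% O2), with 2 libraries per condition that the study calls biologically independent. Both groups grew in the same control αMEM medium, the mice were wild type, and no allele or drug set the groups apart. This order is that of the study's methods, whereas the labels name the oxygen level before the sort. By that order both groups share the earlier culture in hypoxia, so the cells are an expanded population rather than the cells of the bone itself. All 6 mesenchymal markers examined had a shared promoter peak (Pdgfra, Ly6a, Prrx1, Thy1, Eng and Cd44), whereas Ptprc, Cd3e and Itgam of blood and Cdh5 and Tie1 of endothelium had none. Pecam1, an endothelial gene, had 2 such peaks.

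In ATAC-seq the Tn5 transposase cuts DNA that is not wrapped in nucleosomes and adds sequencing adapters there. Active promoters carry a nucleosome-depleted region just upstream of the start site, flanked by positioned nucleosomes, and their signal falls off on both sides. A peak caller that assigns each bin of the genome to one or both conditions can therefore divide a single open region into a core called in both and an edge called in one. A shoulder is such an edge, or a gap between shared peaks that was called in one condition only. Because the libraries came from many cells at once, fewer cells with the region open and less access per cell cannot be told apart.

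The deposited values correspond to reads per 10000000 reads of the library and are not divided by peak width. The 4 libraries held 28259470 and 29413803 reads in hypoxia and 26680936 and 29965523 in normoxia. The groups differed in how much of this fell into peaks. Nuclear peaks held 49.2% and 53.2% of the reads in hypoxia against 31.0% and 35.2% in normoxia, and mitochondrial peaks held 7.77% and 9.13% against 1.5% and 2.34%. The part of this difference in the values of single shoulders was not tested. Fold changes are given after division by RLE (relative log expression) size factors, which centre the libraries on the typical peak. The median log2 change of all nuclear peaks was then -0.0039, against -0.44 for the values as deposited.

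To show what a shoulder looks like as sequence, the 5 shoulders with the highest hypoxia signal among those of at most 300 bp that hold no exon are printed here. They are read from the plus strand of the GRCm38 assembly of RefSeq, whose coordinates are those of mm10. Capitals mark matches on either strand to the motifs counted further on. The Fam120c shoulder (chrX:151346401-151346700) lies in an intron, with 1 match to the GC box. The Dusp1 shoulder (chr17:26499001-26499300) lies in intergenic sequence beyond the gene, with 1 match to the G form of the hypoxia-inducible factor (HIF) motif. The P3h3 shoulder (chr6:124856301-124856600) is intronic and holds 1 GC box and 1 match to the A form of the HIF motif. The S100a10 shoulder (chr3:93562401-93562700) is intronic, with 1 RUNX match. The Tcf20 shoulder (chr15:82963801-82964100) lies 243 bp upstream of the nearest Tcf20 start site, in an annotated intron, with 11 GC boxes, some of them overlapping, and a GC share of 81.7%.
Fam120c: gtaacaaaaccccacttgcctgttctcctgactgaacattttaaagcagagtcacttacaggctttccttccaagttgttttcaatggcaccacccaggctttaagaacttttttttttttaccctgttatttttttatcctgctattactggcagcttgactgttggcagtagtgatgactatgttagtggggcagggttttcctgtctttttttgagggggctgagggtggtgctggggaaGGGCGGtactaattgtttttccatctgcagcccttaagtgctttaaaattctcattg
Dusp1: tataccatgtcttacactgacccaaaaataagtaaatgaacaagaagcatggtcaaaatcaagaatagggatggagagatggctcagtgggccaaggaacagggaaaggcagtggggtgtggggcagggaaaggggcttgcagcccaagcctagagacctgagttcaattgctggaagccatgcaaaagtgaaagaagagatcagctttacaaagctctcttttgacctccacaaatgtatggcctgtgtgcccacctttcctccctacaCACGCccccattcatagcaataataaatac
P3h3: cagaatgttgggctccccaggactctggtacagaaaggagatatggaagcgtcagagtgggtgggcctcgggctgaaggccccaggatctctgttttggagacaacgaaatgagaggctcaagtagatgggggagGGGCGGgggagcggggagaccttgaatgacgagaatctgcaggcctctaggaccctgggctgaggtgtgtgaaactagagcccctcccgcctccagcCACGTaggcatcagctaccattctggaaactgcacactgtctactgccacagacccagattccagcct
S100a10: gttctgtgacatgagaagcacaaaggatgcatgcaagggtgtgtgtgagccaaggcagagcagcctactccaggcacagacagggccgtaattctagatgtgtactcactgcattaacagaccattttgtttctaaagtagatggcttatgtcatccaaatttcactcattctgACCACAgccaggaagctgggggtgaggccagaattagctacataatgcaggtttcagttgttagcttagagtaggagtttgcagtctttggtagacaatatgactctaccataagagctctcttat
Tcf20: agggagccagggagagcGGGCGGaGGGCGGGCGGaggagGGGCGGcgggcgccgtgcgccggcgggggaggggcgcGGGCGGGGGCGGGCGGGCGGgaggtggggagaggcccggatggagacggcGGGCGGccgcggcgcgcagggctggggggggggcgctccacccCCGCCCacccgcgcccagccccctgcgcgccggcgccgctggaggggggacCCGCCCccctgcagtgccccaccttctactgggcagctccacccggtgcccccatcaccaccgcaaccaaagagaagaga
The 5 ranged from a GC share of 43.0% in Fam120c to 81.7% in Tcf20, and from 1 CpG in Fam120c, Dusp1 and S100a10 to 37 in Tcf20. No single composition marked the strongest short shoulders. All 5 joined a shared peak on each side.

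Shoulders were narrow and weak beside the peaks they touched. The median width was 200 bp, and 544 of the 1967 (27.7%) were 100 bp wide, the step of the caller. The touching shared peak had a median width of 2400 bp, with quartiles of 1600 and 4200 bp, and 31 shoulders were wider than it. In hypoxia the median shoulder had 7 and 10 reads, and in each normoxia library it had 1. In normoxia 593 (30.2%) and 604 (30.7%) shoulders had no read at all, against 115 (5.85%) and 47 (2.39%) in hypoxia. No read was seen in either normoxia library for 230 shoulders, in either hypoxia library for 8, and in any of the 4 libraries for 4. Whether a read at a boundary was counted in both the shoulder and the shared peak is not known, and no counting interval is given for their ratio.

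Per base, shoulders carried a small part of the signal of the peak beside them in normoxia and a larger part in hypoxia. Relative to the touching shared peak, the median density was 24.5% and 30.9% in hypoxia, falling to 9.91% and 7.28% for normoxia. Since the ratio is taken within a library, it does not depend on the scaling between libraries. The same order held for summed signal over summed width, at 29.2% and 34.3% against 13.2% and 11%. For 1208 of 1967 shoulders the ratio was lower in both normoxia than in both hypoxia libraries, a count not made for other peaks. The label that chose the shoulders rests on this contrast, so the drop is a description of what was selected and carries no test. A total of 190 shoulders (9.66%) were denser than their shared peak in hypoxia, and 13 were in normoxia.

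**Figure D1:**
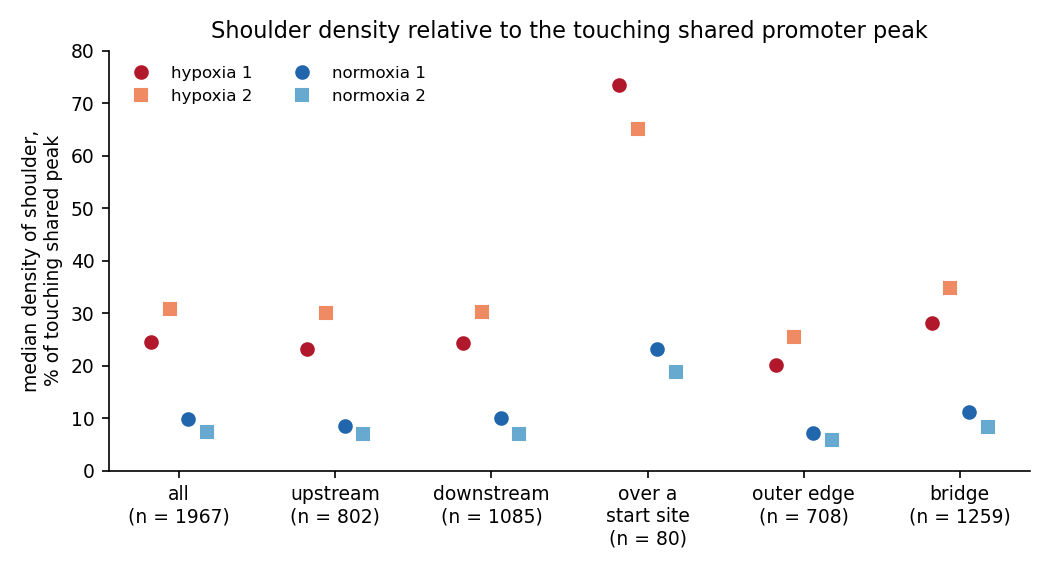
Median density of the shoulders as a percentage of the density of the touching shared promoter peak (vertical axis), for each of the 4 libraries (points), over all nuclear shoulders and by their place. In each class both hypoxia libraries lie above both normoxia libraries, and shoulders over a start site are highest, at 73.5% and 65.1% in hypoxia.

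The position of a shoulder on its promoter was not part of the rule. A total of 1085 shoulders (55.2%) lay downstream of the nearest start site, 802 (40.8%) upstream of it, and 80 (4.07%) over a start site. Of the 32966 edges of all nuclear shared promoter peaks, 51.5% were downstream, 47.4% upstream and 1.11% had a start site in the 100 bp just outside the peak. The downstream share of shoulders was thus 55.2% beside 51.5% for edges. The shares over a start site are not comparable, since shoulders are up to 900 bp wide and the window at an edge is 100 bp. The downstream share varied with distance. Among the 1115 shoulders within 1 kb of the nearest start site, 45.6% were downstream and 47.2% upstream, whereas 89.6% of the 154 shoulders over 5 kb away were downstream. Up to 1000 bp the rate per 100 edges was nevertheless higher downstream, at 8.40 against 6.12 for distances up to 500 bp and 6.36 against 5.36 for those above. Between 1000 and 2000 bp it was 4.41 against 4.59, and over 5000 bp it was 19.8 against 7.34. These are counts over positions, which are not replicates, and were not tested.

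**Figure D2:**
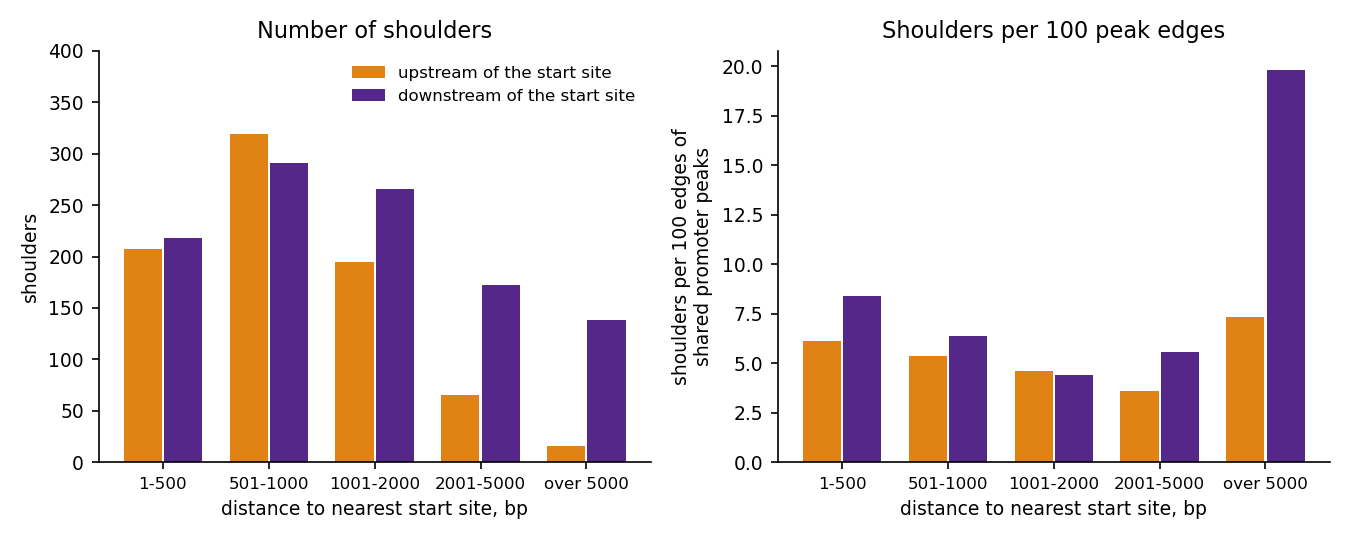
Shoulders by distance to the nearest start site (horizontal axis, bp) and by side, as a number (left) and per 100 edges of shared promoter peaks at the same distance and side (right). Downstream shoulders outnumber upstream ones mainly beyond 1000 bp, and among the plotted classes the rate per edge is highest, at 19.8, downstream and over 5000 bp from the start site.

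Shoulders far from a start site touched wider shared peaks, with a median width of 11450 bp over 5000 bp away and 1800 bp within 1000 bp. The median shoulder lay 864 bp from its start site, 753 bp on the upstream side and 1069 bp on the downstream side, but 50 shoulders lay over 10 kb away, beside wide shared peaks. The widest such peak covered 58800 bp at Myh9, which encodes a non-muscle myosin heavy chain. Of the downstream shoulders, 1012 (93.3%) overlapped the body of their own gene and 73 (6.73%) lay beyond it. By the middle base, 800 downstream shoulders (73.7%) fell in introns, and 62.5% of the upstream ones in intergenic sequence. Over all shoulders, 1028 were in introns, 572 intergenic, 112 in coding sequence, 108 in untranslated exon sequence and 147 in other exons.

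Most shoulders were bridges. A total of 1259 (64.0%) touched a shared peak on each side and so closed a gap between them, 520 of them between a pair of promoter peaks, and 708 (36%) formed the outer edge of an open region. The peaks that joined without a gap made 1754 runs with a median of 3 peaks and 3600 bp, and 176 runs held 2 or more shoulders. Downstream placement was found for 58.5% of the bridges and for 49.3% of the outer edges. Bridges were denser than outer edges against their shared peak, at 28.1% and 34.9% in hypoxia compared with 20.04% and 25.4%. In normoxia the values were 11.3% and 8.33% for bridges and 7.24% and 5.83% for outer edges. The 80 shoulders over a start site stood above both, with 73.5% and 65.1% in hypoxia and 23.2% and 18.7% in normoxia. They were also wider, with a median of 400 bp, beside shared peaks with a median width of 1600 bp.

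After RLE scaling the median log2 fold change of the shoulders (normoxia over hypoxia, on log2 of the value plus 1) was -1.08, with quartiles of -1.37 and -0.71, and 1923 of the 1967 were below 0. With the 230 shoulders without a normoxia read set to a floor of 3 reads per library, and the 162 of them under that floor in hypoxia left out, the median over 1805 shoulders was -1.08. limma called 169 shoulders (8.59%) lower at a false discovery rate (FDR) under 0.01 and 0 higher, beside 4.57% of all peaks called lower. At an unadjusted limma p under 0.05, 1041 shoulders were lower and 0 higher, beside 21572 of 128048 nuclear peaks lower. For the values as deposited 702 shoulders (35.7%) were called lower, beside 24.0% of all peaks. The groups did not overlap, with both normoxia libraries lower, for 1558 shoulders (79.2%), beside 59.5% of all peaks. The rule used this contrast, and nothing is read from these shares. The number of calls followed the width, from 10 of 544 shoulders of 100 bp to 10 of 27 of 900 bp. At the limits of the rule, the 27 shoulders of 900 bp had a median change of -1.23 and the 17 hypoxia-only peaks of 1000 bp, just outside, had -1.17. For shared peaks with their start site 800 to 1000 bp away, 38 shoulders had median values of 3.65 in hypoxia and 0.80 in normoxia. The 33 with a start site farther off but within 1200 bp, outside the rule, had 2.42 and 0.37.

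Compared with other hypoxia-only peaks, promoter shoulders were close in width and in change. The 6225 shoulders of distal shared peaks also had a median width of 200 bp, a median log2 change of -1.01 and 5.61% called lower. Their density was 37.0% and 45.3% of the touching shared peak in hypoxia and 12.9% and 9.12% in normoxia, higher than at promoters in each library, beside shared peaks with a median width of 1400 bp. Distal shoulders were bridges in 54.5% of cases. The 229 hypoxia-only peaks that touch no shared peak had a median change of -1.30. None of these differences was tested, since the same contrast chose all of these classes.

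The promoter peaks that carry a shoulder were lower in normoxia as well. Of 16487 shared promoter peaks, 2288 nuclear ones (13.9%) touched at least 1 shoulder. Counting only shoulders assigned to the peak itself, and not those assigned to a stronger promoter peak, 131 had one at both edges. The median log2 change of the 2288 was -0.38, against -0.23 for the 14195 without a shoulder, and 672 (29.4%) against 2137 (15.1%) were called lower. Under cyclic loess scaling the medians were -0.16 and -0.04. Shoulders were commonest at the weakest and at the strongest promoters. In deciles of the mean value, 22.8% of the weakest and 21.9% of the strongest promoter peaks had one, against 10.3% to 14.0% in the 8 deciles between. In each decile the median change was lower for peaks with a shoulder, at -0.11 against 0.19 in the weakest and -0.45 against -0.40 in the strongest. Shared peaks and shoulders were divided by the same calls, so this too is a description.

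Shoulders were unevenly spread over the chromosomes. Chromosome X held 244 shoulders, 46.9 per 100 shared promoter peaks, whereas the autosomes ranged from 6.34 on chromosome 11 to 15.9 on chromosome 3. On X 253 of 520 promoter peaks (48.7%) had a shoulder, against 2031 of 15959 (12.7%) on autosomes. In every decile of the mean value, which is not divided by width, the share was 33.3% or more on X and 21.9% or less on autosomes. The decile of the strongest peaks held only 3 on X. Distal peaks showed the same, with 24.8 shoulders per 100 shared distal peaks on X and 5.65 on autosomes. The shoulders themselves were alike in size, with a median width of 200 bp on both and a median change of -1.02 on X and -1.09 on autosomes. On X 59.0% were outer edges, against 32.6% on autosomes. Promoter peaks on X were narrower, with a median of 1500 bp against 2300 bp, and had lower values, at 55.0 and 57.6 in hypoxia and 25.9 and 31.7 in normoxia, against 86.7 and 88.7 and then 49.1 and 56.1 on autosomes. Their median change was -0.41 against -0.24. The mice were male, so the cells of both groups carry X in 1 copy. The part of this and of the narrower peaks with lower values in the share of shoulders on X was not tested.

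**Figure D3:**
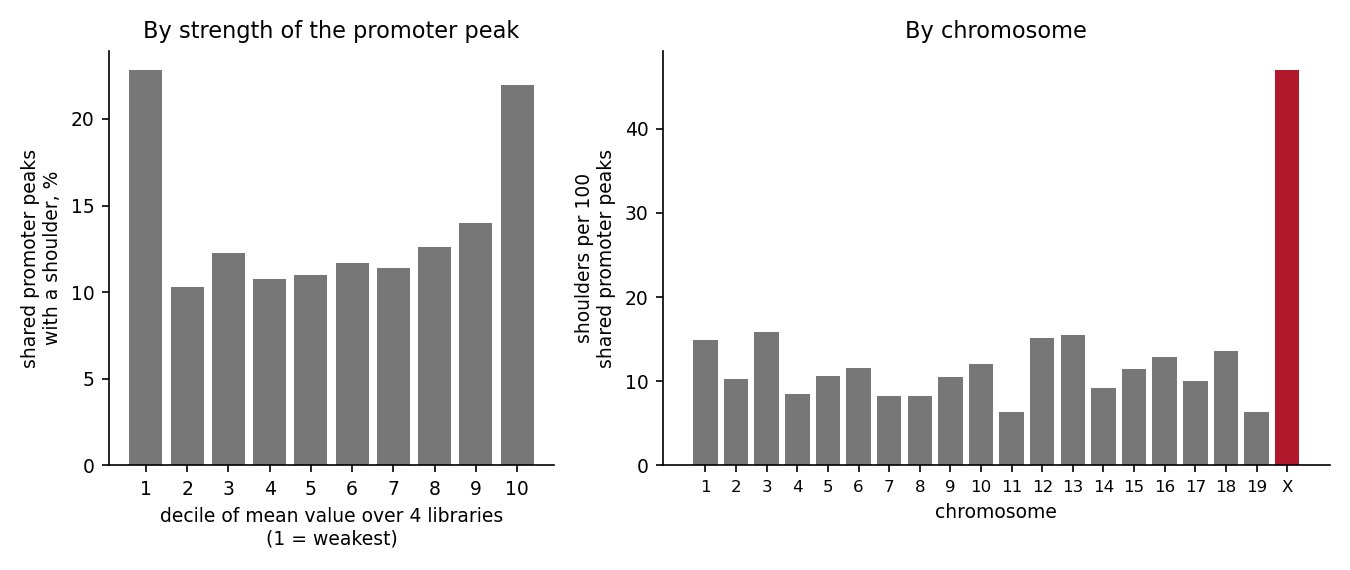
Share of shared promoter peaks with a shoulder by decile of their mean value (left, %) and number of shoulders per 100 shared promoter peaks on each chromosome (right; Y, with 4 peaks, is left out). The weakest and strongest deciles stand at 22.8% and 21.9%, and X stands at 46.9 above every autosome.

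The strongest nuclear shoulder belonged to Tex14, a gene known for its role in the bridges between germ cells. It was 900 bp wide and lay 91 bp upstream of a Tex14 start site. Its middle base was in an annotated intron, and it overlapped an exon. It held values of 148 and 182 in hypoxia and 20.6 and 17.0 in normoxia, 419 and 534 reads against 55 and 51. Both normoxia libraries were far below both hypoxia libraries, and the log2 fold change was -2.60 ± 0.16 (SE, n = 2 libraries per group). Its density in hypoxia was 251% of that of the shared peak of 4900 bp beside it, and 43.5% in normoxia.

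Egr1 encodes an immediate early transcription factor with zinc fingers that is induced within minutes by growth factors and stress. Its shoulder, 600 bp wide, began 494 bp downstream of the start site, over exon and intron sequence, and held 89.2 and 79.9 in hypoxia against 13.1 and 10.4 in normoxia. The touching shared peak of 7100 bp held 693 and 685 against 340 and 365. The shoulder was 145% as dense as that peak in hypoxia and 39.4% as dense in normoxia, and its log2 change was -2.30 ± 0.19.

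The next strongest were Sned1, which encodes an extracellular matrix glycoprotein, Mat2a, which makes the methyl donor S-adenosylmethionine, and Tubb2b, a β-tubulin. The Sned1 shoulder held 55.6 and 43.2 in hypoxia and 7.87 and 11.7 in normoxia over a start site of the gene. The Mat2a shoulder held 41.8 and 41.5 against 7.87 and 8.01, and it lay 4591 bp downstream of the nearest start site. The Tubb2b shoulder, over a start site and coding sequence, held 41.1 and 41.8 against 6.37 and 10.0. The groups did not overlap in any of these, as for 79.2% of all shoulders and 59.5% of all peaks. The log2 changes lay between -1.81 and -1.79.

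Some shoulders were several times denser than the shared peak they touched. Among those with a mean hypoxia value of at least 5, the Tcf20 shoulder reached 421% of the density of its shared peak in hypoxia and 60.3% in normoxia. Tcf20 encodes a transcriptional coregulator. Its libraries stood at 12.0 and 16.3 in hypoxia, and at 1.12 and 2.34 in normoxia. S100a10, the partner of annexin A2, followed with 407% and 107%, and values of 11.7 and 17.7 against 3.00 and 2.00. Lgals12, which encodes a galectin of fat cells, had 380% and 109%, and Flrt1, a leucine-rich repeat membrane protein, had 369% and 92.7%. The Vmn1r42 shoulder, at a vomeronasal receptor gene, had 346%, but beside a shared peak of 100 bp with values of 0.35 and 0.68 in hypoxia. Clstn3, a calsyntenin, had 337% with the shoulder over a start site and values of 17.3 and 15.3 against 1.87 and 3.67. The shared peaks of Flrt1 and Clstn3, each 600 bp wide, were weak as well. They held 6.72 and 1.70 in hypoxia for Flrt1 and 3.89 and 5.78 for Clstn3. For Tcf20, S100a10 and Clstn3 the shoulder was called lower in normoxia, and for Lgals12, Flrt1 and Vmn1r42 the limma FDR was 0.018, 0.028 and 0.029.

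**Figure D4:**
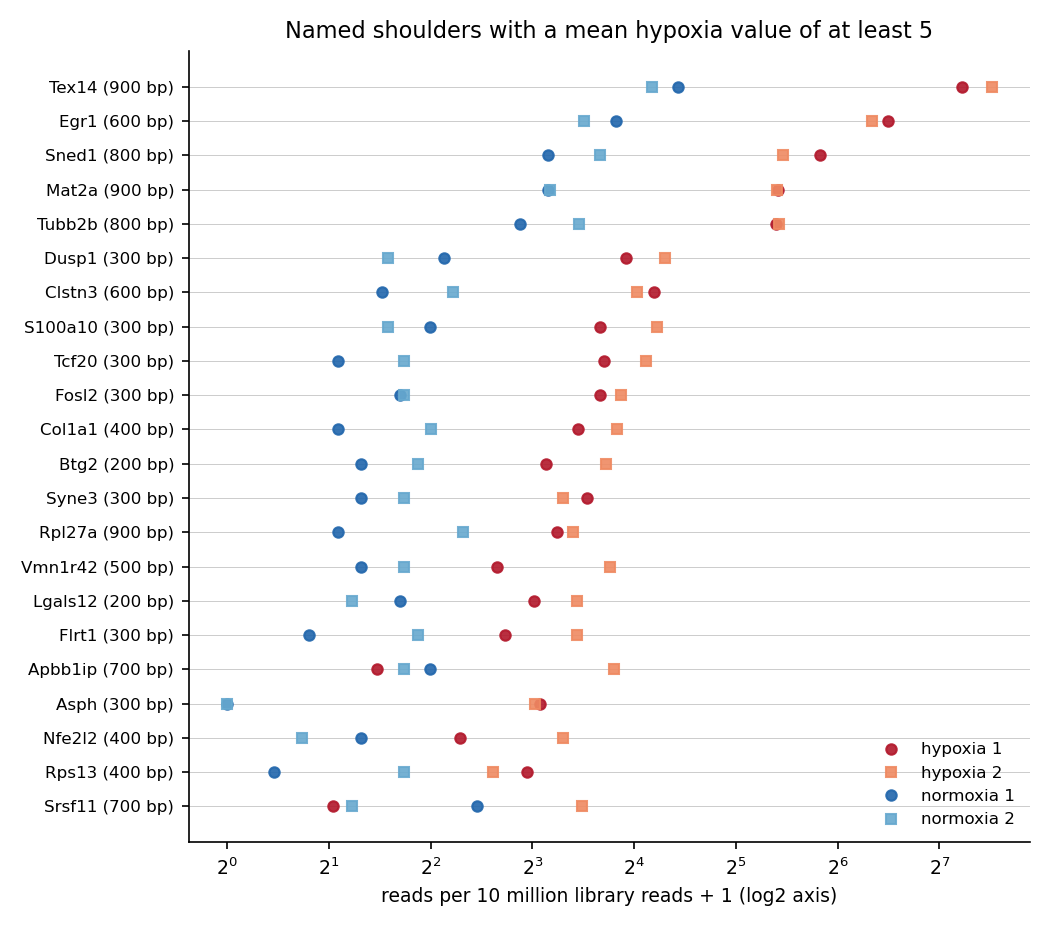
Values of the named nuclear shoulders with a mean hypoxia value of at least 5 in each of the 4 libraries, as reads per 10000000 library reads plus 1 on a log2 axis. Both hypoxia libraries lie to the right of both normoxia libraries in all but Apbb1ip and Srsf11, where hypoxia 1 lies lowest.

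Among the strongest promoter peaks with a shoulder at both edges were those of Dhrs3, Syne3 and Nfe2l2, between 15800 and 22300 bp wide. Dhrs3 encodes a retinal reductase, Syne3 the nuclear envelope protein nesprin-3 and Nfe2l2 the oxidative stress factor NRF2. Their 6 shoulders were small beside peaks whose values reached 757 and 790 in hypoxia for Dhrs3. The upstream Dhrs3 shoulder of 100 bp held 1.42 and 4.08 in hypoxia and 0.00 and 1.34 in normoxia, and the downstream one of 700 bp held 3.54 and 4.42 against 1.87 and 0.33. At Syne3 the upstream shoulder, with 10.6 and 8.84 against 1.5 and 2.34, was called lower, and the other 5 were not.

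Immediate early genes had a shoulder more often than promoters in general. Of the 20 genes in the list, all with a shared promoter peak, 9 (45.0%) had one, against 1732 of 15200 genes (11.4%). They were Egr1, Dusp1, Fosl2, Btg2, Klf4, Nr4a1, Atf3, Fosb and Egr3. These promoters were strong and wide, since 18 of the 20 fell in the strongest decile and the median peak was 10700 bp wide. Within that decile 8 of 18 (44.4%) had a shoulder, against 405 of 1985 genes (20.4%). The list is small, the genes were chosen with earlier results of these data known, and no test was made. Dusp1, a phosphatase that switches off MAP kinases, held 14.2 and 18.7 in hypoxia and 3.37 and 2.00 in normoxia. Fosl2, an AP-1 subunit, held 11.7 and 13.6 against 2.25 and 2.34, and Btg2, an inhibitor of proliferation, 7.79 and 12.2 against 1.5 and 2.67. In all 3 the shoulder lay beyond the 3′ end of the gene, 7820 to 26300 bp from the start site, and touched a shared peak of 11700 to 30000 bp that reached past the gene. The Egr1, Dusp1, Fosl2 and Btg2 shoulders were called lower, with log2 changes from -2.30 to -1.46. Those of the other 5 genes were not, with changes from -1.54 in Fosb to -0.74 in Egr3.

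Hypoxia response genes had shoulders with few reads. Of 19 list genes with a shared promoter peak, 5 (26.3%) had one, namely Hk2 and Pgk1 of glycolysis, the glucose transporter Slc2a1, the mitophagy receptor Bnip3 and the prolyl hydroxylase Egln3. All 5 held between 1.77 and 3.19 in the hypoxia libraries and at most 1.34 in normoxia. In each the groups did not overlap, as for 79.2% of all shoulders and 59.5% of all peaks. None was called, with log2 changes from -1.34 in Slc2a1 to -1.20 in Hk2. Median value and width of the list's promoter peaks were 172 and 4600 bp, against 86.4 and 2500 bp for all genes. In the strongest decile 2 of 6 list genes had a shoulder, against 405 of 1985 genes (20.4%). The part of promoter strength in the share was not tested. Among 14 osteogenic genes with a shared promoter peak, Col1a1 (7.14%), the main collagen of bone, had a shoulder, and among 12 adipogenic genes Cebpb (8.33%) had one. Both counts lie near the 11.4% of all genes. The Col1a1 shoulder held 9.91 and 13.3 in hypoxia and 1.12 and 3.00 in normoxia, and was called lower (log2 change -1.72 ± 0.38), though it lay 23677 bp downstream of the start site, past the gene. The Cebpb shoulder rested on 1 and 4 reads against 1 and 0, with overlapping groups. Of 18 genes of chromatin acetylation and citrate export, Brd2, a reader of acetylated histones, had a shoulder, with 2 and 10 reads against 2 and 0. Slc25a1, the citrate carrier, had none.

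Of 75 cytosolic ribosomal protein genes with a shared promoter peak, 10 (13.3%) had a shoulder, near the 11.4% of all genes. Of 78 mitochondrial ribosomal protein genes 2 (2.56%) had one, Mrpl24 and Mrpl33. The promoter peaks of the mitochondrial list were weaker and narrower than those of all genes, with a median value of 67.9 against 86.4 and a median width of 1900 against 2500 bp, and the part of this in the share was not tested. The strongest shoulder of these lists was that of Rpl27a, with 8.49 and 9.52 in hypoxia against 1.12 and 4.01 in normoxia, followed by Rps13 with 6.72 and 5.10 against 0.37 and 2.34. Neither was called. The Mrpl33 shoulder rested on 0 and 4 reads against 0 and 1.

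The lowest nuclear fold change among shoulders with a mean hypoxia value of at least 5 was that of Asph, which encodes a hydroxylase of aspartate and asparagine residues. It held 21 reads in each hypoxia library and none in either normoxia library, so after RLE scaling it was at least 4.91-fold lower in normoxia, against a floor of 3 reads per library. At the other end, Apbb1ip, an adaptor of Rap1, held 1.77 and 12.9 in hypoxia against 3.00 and 2.34. Srsf11, a splicing factor, held 1.06 and 10.2 against 4.50 and 1.33. In both the hypoxia libraries differed more from each other than from normoxia, and the second hypoxia library alone stood above normoxia. Over all shoulders the second hypoxia library was the higher one more often, since the first was higher in 717 (36.5%).

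The mitochondrial shoulders lay beside very strong shared peaks of that genome. The one over mt-Co2, a cytochrome c oxidase subunit, held 273 and 361 in hypoxia, against 12.0 and 17.0 in normoxia. It had a mean density of 0.679% (hypoxia) and 0.139% (normoxia) of the shared peak of 6800 bp beside it. The one over mt-Nd4, a complex I subunit, held 13.1 and 26.9 against 0.75 and 0.33. Mitochondrial reads as a whole were also lower in the normoxia libraries, as given above, and their part in these values was not tested.

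Shoulder sequence was closer to the flank of a promoter than to its centre. The median GC share was 45.9% in shoulders, 44.0% in a window of equal width beyond the other edge of the same shared peak, and 54.8% in one at the peak's middle. Of these flank windows, 332 began in another peak that touched the shared one, counted with the mitochondrial shoulders. CpG were at a median of 10.0 per kb in shoulders and flanks and 32.5 in the middle, with means of 18, 12.6 and 47.7. A total of 1178 shoulders (59.9%) had a higher GC share than their own flank and 1025 (52.1%) more CpG, with 292 equal. The share of bases in repeats was 14.0% in the median shoulder, 19.5% in the flank and 5.75% in the middle. GC share also varied with the number of reads. Of the shoulders with a mean of at least 10 reads over the 4 libraries, 66.9% were richer in GC than their flank. The part of base composition in the calls was not tested.

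Motif shares in shoulders lay between flank and middle for some motifs and near the flank for others. The GC box GGGCGG, bound by Sp factors, was found on either strand in 209 shoulders (10.6%), in 5.49% of flanks and in 29.7% of middles. The HIF core in its 2 forms, ACGTG and GCGTG, was in 12.9% and 19.2% of shoulders, 12.0% and 14.5% of flanks, and 18% and 29.2% of middles. The AP-1 motif TGANTCA was in 146 shoulders (7.42%), 7.12% of flanks and 6.76% of middles. For the ETS motif CCGGAA the shares were 4.07%, 3.41% and 11.2%. The CCAAT box was in 29.7%, 30.3% and 26.6%, the RUNX motif TGTGGT in 18.7%, 18.9% and 13.6%, and the TEAD motif GGAATG in 12.7%, 12.8% and 11.2%. A match is a run of letters and says nothing on binding.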

How the data were processed

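ATAC-seq values were analysed for 2 hypoxia and 2 normoxia libraries of mouse MSCs. The authors aligned reads to mm10 with bowtie2, removed duplicates with Picard and called peaks over both groups with chromstaR (bin 300 bp, step 100 bp, mapping quality at least 15). The deposited table gives a signal per peak and library, which the authors call RPKM, and the caller's assignment of each peak. All values (100%) of a library came out as multiples of 1 read within 0.001, so library totals and reads were recovered; whether they count fragments or positions is not known. The name of each gene came from the start site nearest to the shoulder among those within 1 kb of the stronger touching promoter peak.

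Values were divided by RLE size factors (1.14 and 1.24 in hypoxia, 0.815 and 0.892 in normoxia), and log2(value + 1) was fitted over all 128055 peaks with limma 3.58.1 in R 4.3.3 (eBayes with trend and robust, two-sided, Benjamini-Hochberg). The pseudocount of 1 understates the change of low peaks. The limma step was tested on simulated data. Density is the value per 100 bp. Python 3 with pysam read GRCm38, whose chromosomes held all peaks of the 22 chromosome names. The p-values measure the spread between 2 libraries per group.

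Members, gene lists and rules were chosen with earlier results of these data known. Named were the 6 shoulders with the highest hypoxia value, the 6 densest against their shared peak and the 2 lowest and 2 highest fold changes (both with a mean hypoxia value of at least 5), the 4 strongest promoter peaks with a shoulder at both edges (1 of them is not reported here), and up to 4 genes per list. The other immediate early and hypoxia response genes, Slc25a1, Myh9 and the lowest nuclear fold change were added after their values were seen. Ca9 was not found under that symbol in the annotation.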

Additional observations from a re-analysis of the deposited data

How the results depend on the processing

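The number of shoulders (1611 to 2023 under other widths, start-site rules and without the mitochondrial genome) stayed within 1.5 times of 1970. The counts of calls did not. Of the shoulders, limma called 534 at an FDR under 0.05, 702 for values as deposited, and 84 both with an equal total over peaks and with a pseudocount of 0.1. It called 0 by eBayes without trend and robust estimation, where 1200 had an unadjusted p under 0.05. No count over all peaks is given for the FDR under 0.05. With edgeR on recovered reads 208 were called with RLE and 196 with TMM factors. Counted in either direction over all 128055 peaks, edgeR called 10553 and 10437. By the same count limma called 31230 as deposited, 9876 with an equal total, 5831 with a pseudocount of 0.1 and 3500 by cyclic loess. Of the shared promoter peaks with a shoulder it called 1592 as deposited, 122 with an equal total, 102 by cyclic loess and 0 by that eBayes, where 768 had an unadjusted p under 0.05. Leaving out 1 library gave 0 to 216 and 0 to 868 calls, with 0 calls over all peaks when either hypoxia library was left out, though 657 and 558 shoulders kept an unadjusted p under 0.05; a lone library is assumed to vary like the others. The cause was not tested. The median change of shoulders was -1.33 as deposited, -0.71 by cyclic loess, and -1.96 and -0.40 with pseudocounts of 0.1 and 5. It was -1.46 above a mean value of 5 and -1.40 at a mean of at least 10 reads over the 4 libraries. That of the shared peaks was -0.83 as deposited, -0.0969 with an equal total and -0.16 by cyclic loess. Cyclic loess turned the called lower change of 7 named shared peaks, to 0.0182 (Egr1), 0.0604 (Sned1), 0.062 (Dhrs3), 0.0252 (Syne3), 0.117 (Nfe2l2), 0.134 (Col1a1) and 0.0564 (Dusp1).

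The downstream share was 58.6% with the start site inside the shared peak, 49.3% at outer edges and 45.6% within 1 kb (chosen after seeing the data). Relative density was 22.7% and 6.53% (hypoxia, normoxia) at outer edges, 41.1% and 16.1% above 10 reads, and 12.1% in normoxia from sums. Above 10 reads stands for a mean of at least 10 reads over the 4 libraries. More GC than the flank was found for 66.9% above 10 reads, and more CpG for 49.3% at outer edges and 65.1% above 10 reads.

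The replicate numbers of the labels are shared by both groups, but same-numbered libraries did not deviate together (correlation 0.011 over all peaks), so they were not taken as pairs. With a replicate block limma called 307 shoulders and 829 shared peaks, and the median changes were the same. Counted in either direction over all 128055 peaks, calls rose as well, to 12384 with the block from 8123 without it. Depth limits single shoulders, as 892 of 1967 held a mean of 10 reads or more in hypoxia.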
